A study of Mus musculus with 58 samples.

Results

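To follow a stress pathway through the loss of a COMPASS subunit, 10 hypoxia-responsive genes were read out of the 20177 genes counted in degron mouse embryonic stem cells. They are Ndrg1, Bnip3, Vegfa, Slc2a1, Pgk1, Ldha, Egln3, Egln1, Ankrd37 and Pfkfb3. Ndrg1 and Bnip3 were chosen by their rise in newly made RNA between 2 h and 8 h of auxin in DPY30–mAID cells, so their values at these times are given as a description, and the others were added as further genes of the same pathway with those results known. Comparisons that the choice did not use were tested, namely 24 h of auxin, the other degron lines and the retinoic acid (RA) course. The 24 h test and the differences between lines share the DPY30–mAID 0 h libraries with the 8 h contrasts. For Ndrg1 and Bnip3 they are thus not independent of the 8 h rise. All lines derive from E14 cells (129/Ola background) kept in serum with leukaemia inhibitory factor (LIF). In DPY30–mAID cells, auxin degrades DPY30, a core subunit of the SET1/COMPASS H3K4 methyltransferases, through an OsTIR1 transgene. In RBBP5–FKBP cells, dTAG-13 degrades RBBP5, another core subunit. DPY30–mAID Kdm5dKO cells (dKO below) carry the DPY30 degron and lack the H3K4 demethylase genes Kdm5a and Kdm5b. In SLAM-seq, RNA was labelled for 60 min with 100 µM 4-thiouridine, which is read as a T>C mismatch in newly made transcripts, at 0, 2, 8 and 24 h of ligand (n = 3 for DPY30–mAID and RBBP5–FKBP cells), and at 0, 2, 4, 8, 24 and 48 h in dKO cells (n = 2). In Quant-seq, unlabelled DPY30–mAID cells received 1 µM RA without LIF and either DMSO or auxin, for 8 h and for 1, 2, 4 and 6 days, beside DMSO cells at 0 h (n = 2, and n = 1 for DMSO at day 6, whose 2 libraries hold identical values). Both assays count 3′-end reads in annotated 3′ UTR intervals.

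Cells sense oxygen through hypoxia-inducible factors (HIFs). With oxygen present, prolyl hydroxylases such as EGLN1 (PHD2) and EGLN3 (PHD3) mark the HIF-α subunits for destruction by the VHL ubiquitin ligase. With little oxygen, HIF-α accumulates, pairs with ARNT and binds hypoxia response elements with the core ACGTG or GCGTG. Its targets shift metabolism to glycolysis (the glucose transporter Slc2a1, the glycolytic enzymes Pgk1 and Ldha, and Pfkfb3, which makes the activator of phosphofructokinase), start blood vessel growth (Vegfa) and mitophagy (Bnip3), and include the hydroxylases themselves and Ankrd37, an ankyrin repeat gene. Ndrg1 is a stress and differentiation gene that also responds to iron and to MYC family factors. H3K4 demethylases of the KDM5 family use oxygen and 2-oxoglutarate as well.

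The core letters of the response element were looked up in the RefSeq promoter windows of GRCm38.p6, which reach 250 bases before and 50 after a transcription start site. ACGTG or GCGTG, on either strand and with overlapping matches counted, stood in the 250 bases before the start in 9 of the 9 members with a window (11 of 12 windows), against 38.6% of 32851 promoters (16.6% for ACGTG and 28.2% for GCGTG). A match describes the letters and is not a binding site. The 4 stretches that follow run from 10 bases before the first match to 10 bases after the last and are shown because their genes differ in response in the data below. They are written 5′ to 3′ on the strand of the gene, with every base of either core or its reverse complement in capitals. Bnip3 lies on the minus strand (chr7:138909527-138909633), Pgk1 on the plus strand (chrX:106186940-106186983), Ldha on the plus strand (chr7:46845649-46845784) and Egln3 on the minus strand (chr12:54204089-54204113).
Bnip3: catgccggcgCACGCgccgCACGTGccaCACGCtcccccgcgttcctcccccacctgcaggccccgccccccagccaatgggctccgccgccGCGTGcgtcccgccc
Pgk1: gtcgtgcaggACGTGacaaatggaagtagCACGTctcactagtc
Ldha: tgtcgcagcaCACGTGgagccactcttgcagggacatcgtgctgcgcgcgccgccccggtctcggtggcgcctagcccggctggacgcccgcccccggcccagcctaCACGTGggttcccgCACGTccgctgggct
Egln3: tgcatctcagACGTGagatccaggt
Bnip3 and this Ldha window each held 5 matches, counting both strands of CACGTG, a further Ldha window, whose end lies in a reference transcript while that of the window shown was found in none, held 1, Pgk1 held 2 and Egln3 held 1. Among the others, Ankrd37 had 4 matches, Slc2a1 2, Egln1 2, Pfkfb3 1 and 3 in its windows, and Vegfa 0 in a window whose end lies in a transcript and 2 in one whose end was found in none.

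DPY30–mAID libraries held 2013350 to 2806821 counted reads, RBBP5–FKBP libraries 1721185 to 2852331, dKO libraries 5931269 to 7792404 and Quant-seq libraries 1264241 to 2543632. T>C reads made up 5.51% to 16.1%, 4.85% to 10.1% and 2.04% to 5.27% of reads in the 3 SLAM-seq lines. In dKO libraries reads covered a mean of 11.2 T positions, against 18.7 in the other lines, so T>C levels are not compared between lines. Unlabelled Quant-seq libraries, the background of the mismatch, had 0.303% to 0.388%. Levels are CPM (counts scaled to 1e6 counted reads) of all counted reads, for total and for T>C reads alike. A call required an adjusted p under 0.05 and an absolute log2 fold change above 1 in edgeR's quasi-likelihood test over all genes with a mean of 10 reads in at least 1 group. ERCC spike-in RNA was added per the study's methods, but its counts were not analysed here, so levels are relative to all counted reads, and less RNA per cell and fewer cells of a type cannot be told apart in such bulk samples. The mES cell markers Pou5f1, Nanog, Sox2, Esrrb, Zfp42, Klf4 and Tdgf1 summed to between 3448 and 4847 CPM in the SLAM-seq libraries. In dKO libraries Kdm5b read 109 to 151 CPM, against 390 to 946 in DPY30–mAID libraries, and Kdm5a 26.0 to 40.7 against 61.1 to 107, but Quant-seq libraries of DPY30–mAID cells, with both genes intact, read 128.7 to 342.7 and 30.6 to 147.7, which overlaps the dKO ranges. A gene that reached the mean of 10 reads through the group where it is high entered the test by that group. This holds for Ndrg1 in T>C reads of DPY30–mAID cells, total reads of RBBP5–FKBP cells and the 8 h fall in RA with DMSO. It also holds for the T>C reads of Egln1 and Pfkfb3 that were called. These calls are read with their counts. A degron acts on the protein, so the RNA of Dpy30 and Rbbp5 checks nothing.

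In DPY30–mAID cells, newly made Ndrg1 and Bnip3 RNA was higher at 8 h of auxin, and total reads were higher at both 8 h and 24 h than before auxin. Ndrg1 (ENSMUSG00000005125, chr15:66929318-66969640, minus strand) gave 2.44, 1.78 and 2.90 T>C CPM at 0 h, 1.23, 3.59 and 0.993 at 2 h, and 6.82, 15.0 and 9.57 at 8 h. Every 8 h library lay above every earlier one, on 16 to 31 T>C reads each, but the counts at 2 h were as low as 2 reads. Total Ndrg1 reads were 16.6, 14.3 and 6.52 CPM at 0 h, 9.04, 11.6 and 7.45 at 2 h and 27.7, 49.9 and 53.8 at 8 h. Bnip3 (ENSMUSG00000078566, chr7:138890836-138909519, minus strand), which encodes a mitophagy receptor of the outer mitochondrial membrane, gave 9.28, 11.8 and 16.7 T>C CPM at 0 h, 6.98, 13.2 and 8.94 at 2 h and 46.0, 31.5 and 13.7 at 8 h. The third 8 h library lay within the range of the 0 h libraries, and the T>C share of all its reads was also the lowest of the 8 h libraries. Total Bnip3 reads showed no such overlap, with 42.5, 55.6 and 43.8 CPM at 0 h, 60.4, 72.6 and 64.1 at 2 h and 234, 197 and 221 at 8 h. The log2 fold changes of T>C reads at 8 h were 2.02 ± 0.66 (SE) for Ndrg1 and 1.16 ± 0.43 for Bnip3, where the median of all tested genes was −0.71, and those of total reads were 1.73 ± 0.31 and 2.09 ± 0.14. Across all genes 14.6% were called in T>C and 4.16% in total reads at 8 h. As the 8 h libraries took part in the choice of Ndrg1 and Bnip3, no test is given for these 2 genes. At that time the T>C log2 fold changes of the other members ran from −1.22 (Egln1 and Pfkfb3) to 0.16 (Egln3).

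**Figure D1:**
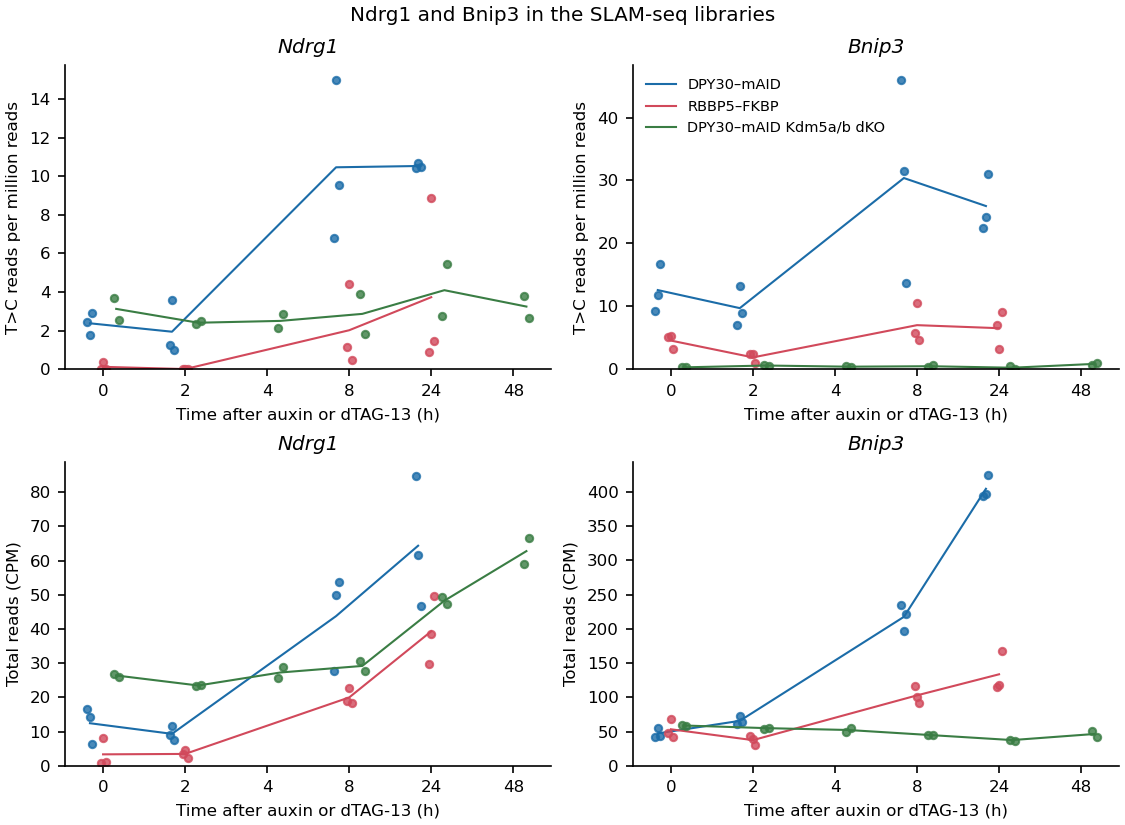
T>C reads and total reads of Ndrg1 and Bnip3, in CPM of all counted reads, over hours of ligand (times evenly spaced, not to scale) in the 3 SLAM-seq lines. Points are libraries and lines join the means. Bnip3 total reads lie between 393 and 424 CPM at 24 h in DPY30–mAID cells and between 36.8 and 38.4 in dKO cells.

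At 24 h of auxin Ndrg1 and Bnip3 total RNA was upregulated and Pfkfb3 was downregulated in DPY30–mAID cells. The choice did not use the 24 h libraries, but the 0 h libraries are those of the 8 h contrasts. Bnip3 reached 393, 396 and 424 CPM of total reads, against 42.5 to 55.6 at 0 h, a log2 fold change of 3.08 ± 0.15 (SE; adjusted p = 2.9e-23). Ndrg1 reached 84.6, 61.6 and 46.8 CPM (2.37 ± 0.31, adjusted p = 1.7e-08). For both genes no 24 h library overlapped the 0 h libraries. Pfkfb3 (ENSMUSG00000026773, chr2:11471433-11554077, minus strand) fell from 47.8, 43.1 and 53.6 CPM to 19.7, 13.6 and 12.1 (log2 fold change −1.68 ± 0.28, adjusted p = 2.9e-06). These 3 were the calls among the 9 members tested, 2 higher and 1 lower, where 13.2% of all 9848 genes were called, and the members' median log2 fold change was −0.14 against 0.01 over all genes. As the 2 higher ones were chosen for their earlier rise in this line, nothing is read from this count. Pgk1 stood below the fold threshold, with 1126, 1147 and 1236 CPM at 0 h and 1958, 2093 and 2161 at 24 h (0.81 ± 0.08, adjusted p = 4.5e-11). Egln3 was at −0.87 ± 0.28 (adjusted p = 0.013), and at −1.15 ± 0.28 (adjusted p = 0.00124), which is a call, without the first 0 h library. The other 4 members (Vegfa, Slc2a1, Ldha and Egln1) lay between −0.22 and 0.02. Ankrd37 was below the count filter, with 0 to 5.22 CPM in any DPY30–mAID library. Over the same time the 5 trophectoderm markers went from 58.3 to 68.4 CPM in sum at 0 h to 19.4 to 30.1 at 24 h, and the 5 neural markers from 104.7 to 125.5 to 52.2 to 70.2, while the 5 fibroblast markers stayed at 0.802 to 4.97, and their part in these values was not tested.

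The newly made RNA at 24 h gave a partly different picture. Ndrg1 stood at 10.4, 10.7 and 10.5 T>C CPM, above all 3 libraries at 0 h, but on 22 to 26 T>C reads each the log2 fold change of 2.12 ± 0.66 did not pass the test (adjusted p = 0.055). Bnip3 stood at 22.5, 24.2 and 31.1 T>C CPM (1.03 ± 0.43, adjusted p = 0.17). Other settings moved both calls, as Ndrg1 had an adjusted p of 0.0184 and Bnip3 of 0.139 with DESeq2, 0.0138 and 0.0434 with only the 0 h and 24 h libraries fitted, and 0.00784 and 0.0175 when T>C reads gave their own scaling factors. As Ndrg1 had 18 T>C reads over the 3 libraries at 0 h, under the filter, these values are no support for a rise. Egln1 (ENSMUSG00000031987, chr8:124908587-124949324, minus strand) went from 25.4, 13.2 and 12.0 to 7.22, 0.970 and 2.83 T>C CPM (−2.16 ± 0.57, adjusted p = 0.022). Pfkfb3 went from 15.1, 14.6 and 12.0 to 2.41, 2.42 and 5.25 (−2.03 ± 0.58, adjusted p = 0.035). Both passed the filter through earlier times, when they were higher, and without it the adjusted p was 0.0184 for Egln1 and 0.0609 for Pfkfb3. Nothing is read from the count of 2 called among 9 members beside the 3.56% of 6317 genes called, with a median of −0.36 over the members and −0.14 over all genes. Both rest on few reads, as the Egln1 value at 24 h comes from 18, 2 and 7 T>C reads. The Egln1 call was lost without the first 0 h library (−1.76, adjusted p = 0.162), the second 24 h library (−1.75, adjusted p = 0.131) or the third (−2.01, adjusted p = 0.127). The Pfkfb3 call was lost without any single one of the 6 libraries, with adjusted p from 0.0646 to 0.141 and log2 fold changes from −2.52 to −1.82.

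**Figure D2:**
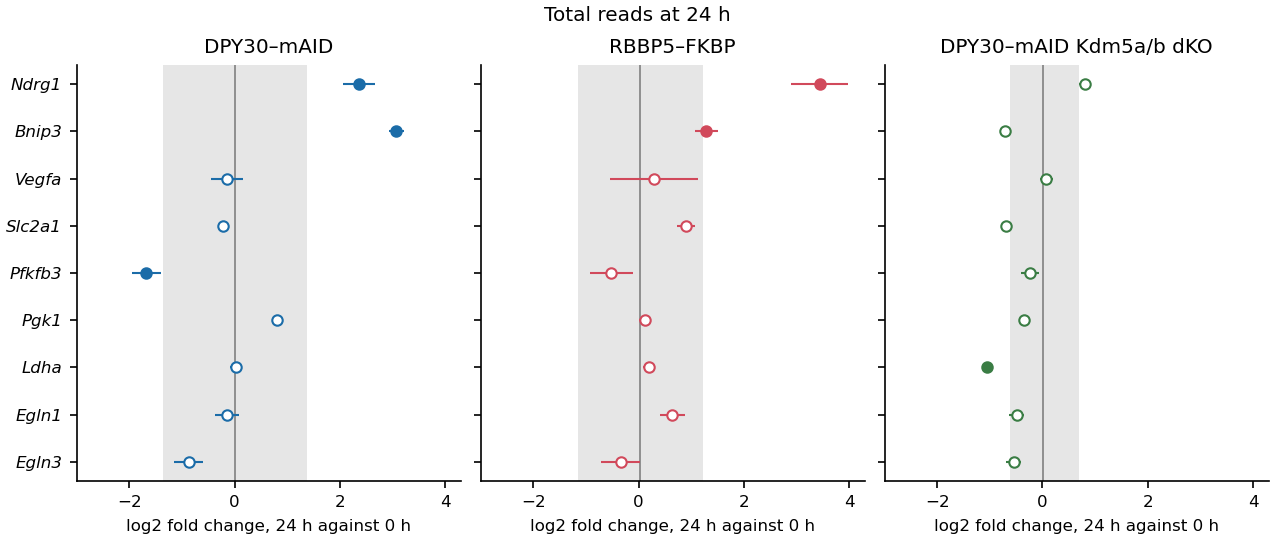
Log2 fold change of total reads at 24 h against 0 h for each member in the 3 SLAM-seq lines, with bars of ± 1 SE. Filled points were called, the grey band spans the 5th to 95th percentile of all tested genes and the line marks their median. Bnip3 stands at 3.08 in DPY30–mAID, 1.29 in RBBP5–FKBP and −0.71 in dKO cells.

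To ask whether the loss of another COMPASS subunit gives the same response, RBBP5–FKBP cells were read in the same way. Bnip3 total RNA was upregulated there at 24 h, and every 8 h and 24 h library held more total Ndrg1 reads than every library at 0 h. Ndrg1 was low at 0 h, with 0.924, 8.06 and 1.09 CPM, of which the second library lay far above the others. It stood at 3.49, 4.71 and 2.25 CPM at 2 h, 19.0, 22.7 and 18.3 at 8 h and 29.7, 38.7 and 49.6 at 24 h. The log2 fold change was 2.46 ± 0.54 at 8 h (adjusted p = 0.0055) and 3.44 ± 0.54 at 24 h (adjusted p = 0.00021). The 0 h libraries held 28 Ndrg1 reads in all, a mean under the filter, which the gene passed through 8 h and 24 h, so that its calls give no support by their number. Without the filter the values were 2.46 (adjusted p = 6.05e-05) and 3.44 (adjusted p = 7.55e-10). Without the second 0 h library the 8 h value was 4.18 (adjusted p = 0.00014) and the 24 h value 5.16 (adjusted p = 5.6e-06). The 8 h call was lost with only the 0 h and 8 h libraries in the fit (adjusted p = 0.0633). Bnip3 rose from 48.5, 69.1 and 42.5 CPM to 115, 118 and 168 at 24 h (1.29 ± 0.22, adjusted p = 0.00047), and its 8 h value of 0.90 ± 0.22 (adjusted p = 0.011; 116, 101 and 91.6 CPM) was under the fold threshold, but above it, at 1.12, without the second 0 h library. Slc2a1 read 210, 367 and 345 CPM at 0 h and 638, 518 and 600 at 24 h, with no overlap (0.89 ± 0.17, adjusted p = 0.0016), and its log2 fold change was 1.04 and thus called without the second 0 h library. Of the 9 members tested, Ndrg1 was called at 8 h, where 4.32% of 9676 genes were, and Ndrg1 and Bnip3 at 24 h, where it was 3.49%. Their median log2 fold change was 0.20 at 8 h, against 0.01 for all genes, and 0.29 at 24 h, against 0.02. Egln3 was at −1.03 ± 0.38 at 8 h (adjusted p = 0.095) and was called without the second 0 h library (−1.37, adjusted p = 0.0272). The trophectoderm markers here went from 44.9 to 53.4 CPM in sum at 0 h to 9.22 to 22.1 at 8 h and 12.9 to 18.2 at 24 h, and the neural markers from 69.7 to 84.3 to 115 to 121 and 84.8 to 122.7, and their part in these values was not tested either.

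Newly made RNA of these genes was thinly covered in RBBP5–FKBP cells. Ndrg1 had 0, 1 and 0 T>C reads at 0 h, none at 2 h, 2, 8 and 1 at 8 h and 2, 19 and 3 at 24 h, so it was not tested, and neither were Vegfa, Pfkfb3 and Ankrd37. Bnip3 T>C levels overlapped between times, with 5.08, 5.26 and 3.27 CPM at 0 h and 7.09, 3.26 and 9.16 at 24 h (0.48 ± 0.72, adjusted p = 0.64). At 8 h 0 of the 6 tested members were called, and 0 also at an unadjusted p with the fold threshold or with DESeq2, against 5.73% of 4761 genes. At 24 h Ldha was called (79.4, 69.4 and 57.4 T>C CPM at 0 h, and 27.0, 29.8 and 23.6 at 24 h; −1.39 ± 0.28, adjusted p = 9.7e-05), against 23% of all genes, whose median was −0.91. With scaling factors from T>C reads, which centre all genes, Ldha was at −0.67 (adjusted p = 0.185) and not called. The members' median was −0.60 at 8 h, where that of all genes was −0.50, and −0.88 at 24 h. Vegfa, the angiogenic growth factor, had 0.462 to 9.88 CPM of total reads in RBBP5–FKBP cells, against 18.7 to 39.7 in DPY30–mAID and 54.0 to 83.2 in dKO cells.

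The DPY30 degron was then read in cells without KDM5A and KDM5B, where the responses of Bnip3 and Ndrg1 differed from those in DPY30–mAID cells. Bnip3 read 59.7 and 58.0 CPM of total reads at 0 h, 44.3 and 45.6 at 8 h, 38.4 and 36.8 at 24 h and 50.3 and 42.6 at 48 h, so both 24 h libraries lay below both 0 h libraries (log2 fold change −0.71 ± 0.10, adjusted p = 0.00038). Ndrg1 read 26.9 and 25.9 CPM at 0 h, 30.6 and 27.8 at 8 h, 49.3 and 47.2 at 24 h and 59.0 and 66.6 at 48 h. It was thus higher at 24 h (0.81 ± 0.12, adjusted p = 0.0003) and was upregulated at 48 h (1.16 ± 0.11, adjusted p = 6.3e-06). The 24 h change in dKO cells minus that in DPY30–mAID cells was −3.77 ± 0.19 for Bnip3 (adjusted p = 1.8e-16) and −1.55 ± 0.38 for Ndrg1 (adjusted p = 0.0036). In total reads Pgk1 (−1.14 ± 0.11, adjusted p = 1.7e-08), Ldha (−1.06 ± 0.13, adjusted p = 4.3e-07) and Pfkfb3 (1.46 ± 0.37, adjusted p = 0.0053) also differed between the lines, so that 5 of 9 members were called, against 7.38% of 11483 genes. The members' median difference was −0.46 and that of all genes 0.01. Bnip3 and Ndrg1 were chosen for a rise in DPY30–mAID cells, so nothing is read from the count of 5. The Bnip3 difference was −3.76 in uniquely mapped reads. Of the Bnip3 reads in dKO libraries 61.1% mapped to more than 1 place and 0.917% were T>C reads, against 3.92% over all genes. Whether they came from the same sequence as in DPY30–mAID cells was not tested. The Pgk1 difference was −2.17 ± 1.1 (adjusted p = 0.191) in uniquely mapped reads, and that of Ldha was −0.99, under the fold threshold, without the second dKO 0 h library. Each line is 1 genotype in its own set of libraries, with other read lengths and depths, so that the knockout and the library set cannot be told apart. In dKO cells the trophectoderm markers went from 43.3 to 43.8 CPM in sum at 0 h to 31.5 to 31.9 at 24 h and the fibroblast markers from 20.0 to 25.0 to 12.7 to 16.3, and their part in these values was not tested.

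Against RBBP5–FKBP cells, 2 of 9 members differed from DPY30–mAID cells in the 24 h change of total reads, where 7.32% of 10196 genes were called. The change in RBBP5–FKBP minus that in DPY30–mAID cells was −1.81 ± 0.25 for Bnip3 (adjusted p = 2e-06) and 1.10 ± 0.20 for Slc2a1 (adjusted p = 0.0002; 0.90 without the first RBBP5–FKBP 0 h library). That of Ndrg1 was 1.06 ± 0.60 (adjusted p = 0.26), and 2.77 (adjusted p = 0.00597) without the second RBBP5–FKBP 0 h library. Pfkfb3 was at 1.15 ± 0.47 (adjusted p = 0.1), and at 1.50 (adjusted p = 0.0263) without the second RBBP5–FKBP 24 h library. The median was 0.52 over the members and 0.00 over all genes. As Bnip3 was chosen for its rise in DPY30–mAID cells, nothing is read from the count of 2. In T>C reads 0 of the 9 members differed, against 8.46% of 6404 genes, and DESeq2 called 1 and an unadjusted p 2. Ndrg1, Vegfa and Pfkfb3, too thin to test in RBBP5–FKBP T>C reads alone, passed the filter here through the DPY30–mAID libraries. Nothing is read from this count.

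In dKO cells newly made Slc2a1 and Ldha RNA fell by 24 h, as did that of Vegfa, and with scaling factors from T>C reads the call held for Ldha. Slc2a1 (ENSMUSG00000028645, chr4:119108711-119137983, plus strand), which encodes the glucose transporter GLUT1, fell in newly made RNA from 70.6 and 97.8 T>C CPM at 0 h to 26.7 and 28.6 at 24 h and 23.6 and 30.3 at 48 h (log2 fold changes −1.67 ± 0.17 and −1.73 ± 0.17). Ldha (ENSMUSG00000063229, chr7:46841475-46855627, plus strand), the lactate dehydrogenase subunit that regenerates NAD+ from pyruvate, fell from 45.9 and 43.6 to 11.1 and 9.23 at 24 h and 8.08 and 13.2 at 48 h (−2.20 ± 0.20 and −2.15 ± 0.19). Ldha was already at 24.4 and 26.5 T>C CPM at 4 h (−0.84 ± 0.18, adjusted p = 0.0045) and 23.6 and 24.0 at 8 h (−0.94 ± 0.18, adjusted p = 0.00038). Vegfa (−1.05 ± 0.29, adjusted p = 0.0026) and Egln1 (−2.53 ± 0.76, adjusted p = 0.0054) were called at 24 h as well, the latter on 3 and 1 T>C reads against 13 and 12 at 0 h, through which it passed the filter. So 3 of 6 tested members fell at 24 h beside Egln1, where 27.7% of 5965 genes were called, and 4 at 48 h beside Egln1, with Pgk1 at −1.13 ± 0.17, against 64.5%. At 8 h 0 were called, also at an unadjusted p with the fold threshold and with DESeq2, against 0.721%.

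These T>C values sit on a shift of all genes, whose median was −0.19 at 8 h, −0.80 at 24 h and −1.29 at 48 h, while the members' medians were −0.43, −1.36 and −1.53. With scaling factors from T>C reads, which remove that shift, Ldha remained called at 24 h (−1.47 ± 0.16, adjusted p = 2.75e-11), Slc2a1 was at −0.93 at 24 h and −0.54 at 48 h, Vegfa at −0.31 and −0.14, and no member was called at 48 h. On that scale Pgk1 changed sign at 48 h, to 0.07, and Ndrg1, at 0.33 and −0.02 in the first scale, was at 1.06 (adjusted p = 0.077) and 1.17 (adjusted p = 0.0511). Without the second 0 h library Vegfa was at −0.72 (adjusted p = 0.123) at 24 h and Pgk1 at −0.87 at 48 h, without the first one Pgk1 was called at 24 h (−1.09), and without the second 24 h library Egln1 had an adjusted p of 0.0799. Egln1 was at an adjusted p of 0.05 at 48 h without the first 48 h library. Bnip3, Egln3, Pfkfb3 and Ankrd37 were not tested, as Bnip3 had 0 to 7 T>C reads in any dKO library.

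**Figure D3:**
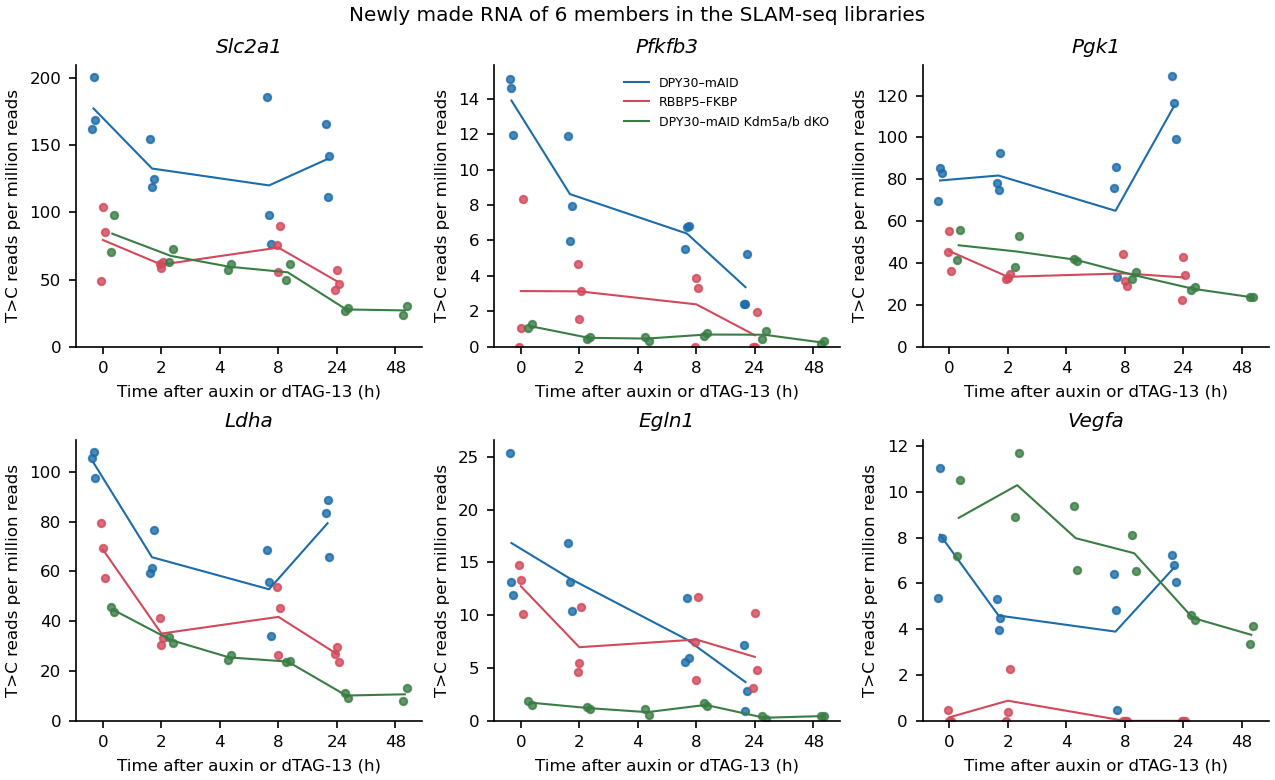
T>C reads of Slc2a1, Pfkfb3, Pgk1, Ldha, Egln1 and Vegfa, in CPM of all counted reads, over hours of ligand (times evenly spaced, not to scale) in the 3 SLAM-seq lines. Points are libraries and lines join the means. In dKO cells Ldha goes from 45.9 and 43.6 at 0 h to 11.1 and 9.23 at 24 h.

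Total reads of Ldha and Slc2a1 in the same line changed less than their T>C reads, which carry the shift of all genes. Scaling factors from T>C reads gave T>C values of −1.47 for Ldha and −0.93 for Slc2a1 at 24 h. Whether total and T>C changes differ was not tested. In total reads Ldha fell from 1720 and 1860 CPM to 896 and 899 at 24 h (−1.06 ± 0.08, adjusted p = 5.8e-07) and stood at 1044 and 1223 at 48 h (−0.75 ± 0.08, adjusted p = 1e-05). The 24 h value was −0.99 without the second 0 h library. Slc2a1 went from 727 and 805 CPM to 483 and 506 at 24 h (−0.69 ± 0.07, adjusted p = 1.7e-05) and 625 and 680 at 48 h. Ldha was 1 of 9 members called at 24 h, against 1.5% of 11394 genes, and Ndrg1 1 of 9 at 48 h, against 2.44%. At 8 h 0 were called, also at an unadjusted p with the fold threshold and with DESeq2, against 0.00878% of genes. The median over the members was −0.15, −0.49 and −0.32 at 8, 24 and 48 h, and that of all genes 0.01 each time. Bnip3, Egln3 and Pfkfb3, not tested in dKO T>C reads alone, entered the T>C difference between lines through the DPY30–mAID libraries. They are part of its count and median, from which nothing is read. The difference from DPY30–mAID cells in the 24 h change of T>C reads was called for Slc2a1 (−1.29 ± 0.38, adjusted p = 0.049), Pgk1 (−1.37 ± 0.39, adjusted p = 0.041) and Ldha (−1.78 ± 0.39, adjusted p = 0.0097), 3 of 9 members against 2.41% of 6901 genes, with a median of −1.29 against −0.68 for all genes. With T>C scaling factors it held for Ldha (−1.18, adjusted p = 0.00721) and not for Slc2a1 (−0.69) or Pgk1 (−0.76). The Ldha call was lost without the second dKO 0 h library (−1.80, adjusted p = 0.0806), the first dKO 24 h library (−1.92, adjusted p = 0.0753) or the second (−1.70, adjusted p = 0.125). Those of Slc2a1 and Pgk1 were lost without any of these 3 libraries and without the first or the third 0 h library or the first 24 h library of DPY30–mAID cells, as well as the third (Slc2a1) or the second (Pgk1) 24 h library, with adjusted p from 0.0539 to 0.317.

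In DPY30–mAID and RBBP5–FKBP cells total Ldha was not called at any time tested. It stayed between 715 and 1032 CPM in all 12 DPY30–mAID libraries and between 977 and 1332 in RBBP5–FKBP libraries. Pgk1 (ENSMUSG00000062070, chrX:106187100-106203699, plus strand), the phosphoglycerate kinase that yields the first ATP of glycolysis, ran from 981 to 1436 CPM in RBBP5–FKBP cells, and its 24 h log2 fold change was 0.81 in DPY30–mAID, 0.11 in RBBP5–FKBP and −0.34 in dKO cells. Between 98.4% and 99.9% of Pgk1 reads in any line mapped to more than 1 place, so that its counts cannot be told from those of its near-identical copies. The same share was 22.9% for Bnip3 in DPY30–mAID, 23.5% in RBBP5–FKBP, 61.1% in dKO and 71.1% in Quant-seq libraries, and 23.0% to 53.0% for Ldha. In uniquely mapped reads the 24 h log2 fold change of Bnip3 was 3.03 for DPY30–mAID cells and 1.21 for RBBP5–FKBP cells, both called.

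The T>C share of a gene, its T>C reads as a percentage of its own reads, was read beside its level. For Bnip3 in DPY30–mAID cells it averaged 27.0% ± 9.5 (SD, n = 3) before auxin, 14.6% ± 3.3 after 2 h, 13.9% ± 7.0 after 8 h and 6.39% ± 0.84 after 24 h, while total Bnip3 was highest at 24 h. The 0 h libraries lay at 21.8%, 21.2% and 38.0%, and all 3 stood above the 24 h libraries. In dKO cells the Bnip3 share was 0.468% ± 0.035 (SD, n = 2) at 0 h, on 4 T>C reads of 858, close to the mismatch of unlabelled libraries, and whether its reads there came from the same sequence as in the other lines was not tested. For Slc2a1 the share went from 34.2% ± 3.9 before auxin to 30.7% ± 3.6 after 24 h in DPY30–mAID cells, from 25.5% ± 2.6 to 8.48% ± 2.2 in RBBP5–FKBP cells (n = 3) and from 10.9% ± 1.7 to 5.60% ± 0.082 in dKO cells (n = 2). Total Slc2a1 in RBBP5–FKBP cells was higher at 24 h while its share was lower in all 3 libraries. The share of Ldha went from 13.2% ± 1.8 to 9.77% ± 1.4 in DPY30–mAID cells, from 6.55% ± 0.92 to 2.19% ± 0.22 in RBBP5–FKBP cells and from 2.51% ± 0.23 to 1.13% ± 0.15 in dKO cells over the same time. Over all reads, T>C reads made up 15.3% to 16.1% before auxin and 14.5% to 15.8% after 24 h in DPY30–mAID, 9.10% to 10.1% and 4.85% to 5.33% in RBBP5–FKBP and 4.69% to 5.27% and 2.98% to 3.13% in dKO libraries, and the part of these shifts in the shares of single genes was not tested.

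**Figure D4:**
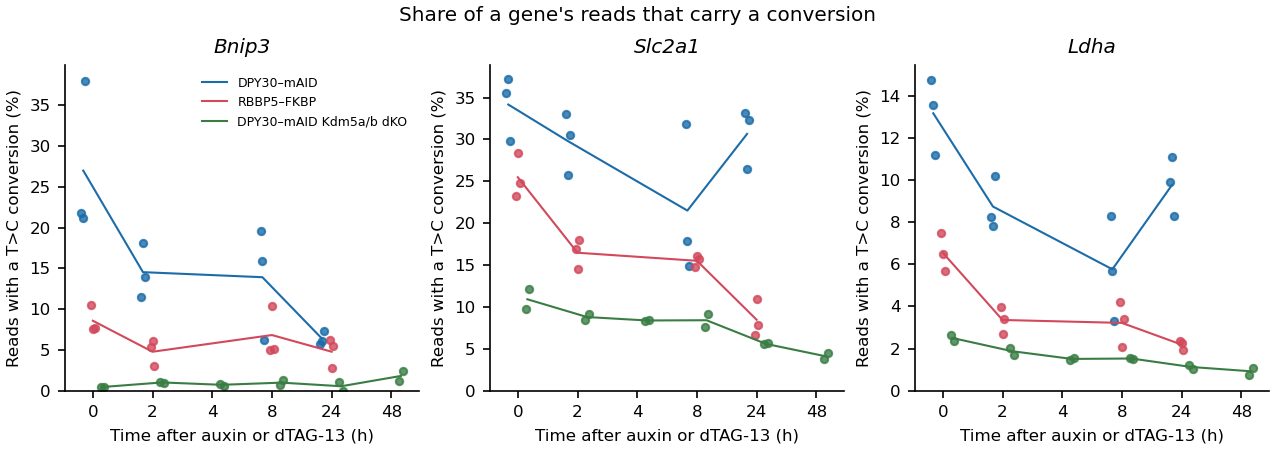
T>C reads as a percentage of the reads of Bnip3, Slc2a1 and Ldha over hours of ligand (times evenly spaced) in the 3 SLAM-seq lines. Points are libraries and lines join the means. Bnip3 in DPY30–mAID cells goes from a mean of 27.0% at 0 h to 6.39% at 24 h.

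RA treatment in DMSO, without loss of DPY30, shows how the same genes behave as mES cells differentiate. Ldha fell, Vegfa rose, Slc2a1 fell at day 1 and was under the fold threshold at the other times, and Ndrg1 first fell and later rose. Ndrg1 read 18.8 and 26.3 CPM at 0 h, 3.13 and 2.52 at 8 h, 15.7 and 14.9 at day 1, 17.5 and 17.7 at day 2, 93.3 and 132 at day 4 and 63.0 at day 6. Its log2 fold change against 0 h was −2.94 ± 0.38 at 8 h (adjusted p = 2.7e-06), on 6 reads in each 8 h library, 2.12 ± 0.21 at day 4 (adjusted p = 2.3e-09) and 1.27 ± 0.25 at day 6 (adjusted p = 0.00014). DMSO at day 6 is 1 sample, which is assumed to vary like the other groups, so SE and p of every day 6 comparison rest on the spread of the others. Vegfa (ENSMUSG00000023951, chr17:46016993-46032369, minus strand) rose from 22.4 and 15.3 CPM to 53.7 and 56.7 at day 1, 101 and 94.2 at day 2, 82.5 and 70.4 at day 4 and 62.6 at day 6, with log2 fold changes of 1.57 ± 0.22, 2.30 ± 0.20, 1.85 ± 0.20 and 1.54 ± 0.24. Slc2a1 dipped at day 1, from 480 and 487 CPM to 97.7 and 120 (−2.15 ± 0.12, adjusted p = 1.3e-13), and was back at 487 and 484 at day 2. Ldha fell from 1319 and 1386 CPM to 569 and 576 at day 1 (−1.23 ± 0.09), 278 and 312 at day 4 (−2.38 ± 0.09) and 539 at day 6 (−1.52 ± 0.12), with −0.99 ± 0.09 at day 2, which passed the fold threshold without the first 0 h library (−1.02) or the second day 2 library (−1.03).

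Egln3 (ENSMUSG00000035105, chr12:54178981-54203860, minus strand) fell from 25.1 and 19.7 CPM at 0 h to 8.14 and 10.5 at day 1, and its log2 fold change ran from −1.25 at day 1 to −1.76 at day 6. Egln1 was higher in the 1 DMSO sample at day 6 (28.2 and 31.5 CPM at 0 h, 73.6 at day 6; 1.10 ± 0.23, adjusted p = 0.00025). Bnip3 was lower at day 4 (80.6 and 97.5 CPM at 0 h, 26.6 and 29.8 at day 4; −1.84 ± 0.18, adjusted p = 1.6e-09), as was Pgk1 (883 and 898, then 406 and 410 CPM; −1.31 ± 0.09), which was at −0.85 and not called in uniquely mapped reads. Pfkfb3 (9.25 to 18.2 CPM) and Ankrd37 (0.466 to 5.22 CPM) were not called at any time. In all, 1, 4, 2, 6 and 5 of the 10 members were called at 8 h and days 1, 2, 4 and 6, against 6.5%, 29.4%, 26.3%, 30.7% and 37% of 11415 genes. The members' median log2 fold changes were 0.21, −0.40, −0.34, −1.02 and −0.66, and those of all genes 0.00, 0.10, 0.06, 0.04 and 0.07. Over this course the 7 mES cell markers went from 4956 to 5191 CPM in sum to 899.7 at day 6, and the primitive endoderm markers Gata6, Gata4, Sox17, Dab2 and Pdgfra from 8.959 to 9.435 CPM to 2830, the trophectoderm markers went from 36.3 to 40.1 CPM to 1677 and the neural markers from 109.7 to 118.3 to 33.5, and the part of the cell mixture in these values was not tested.

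**Figure D5:**
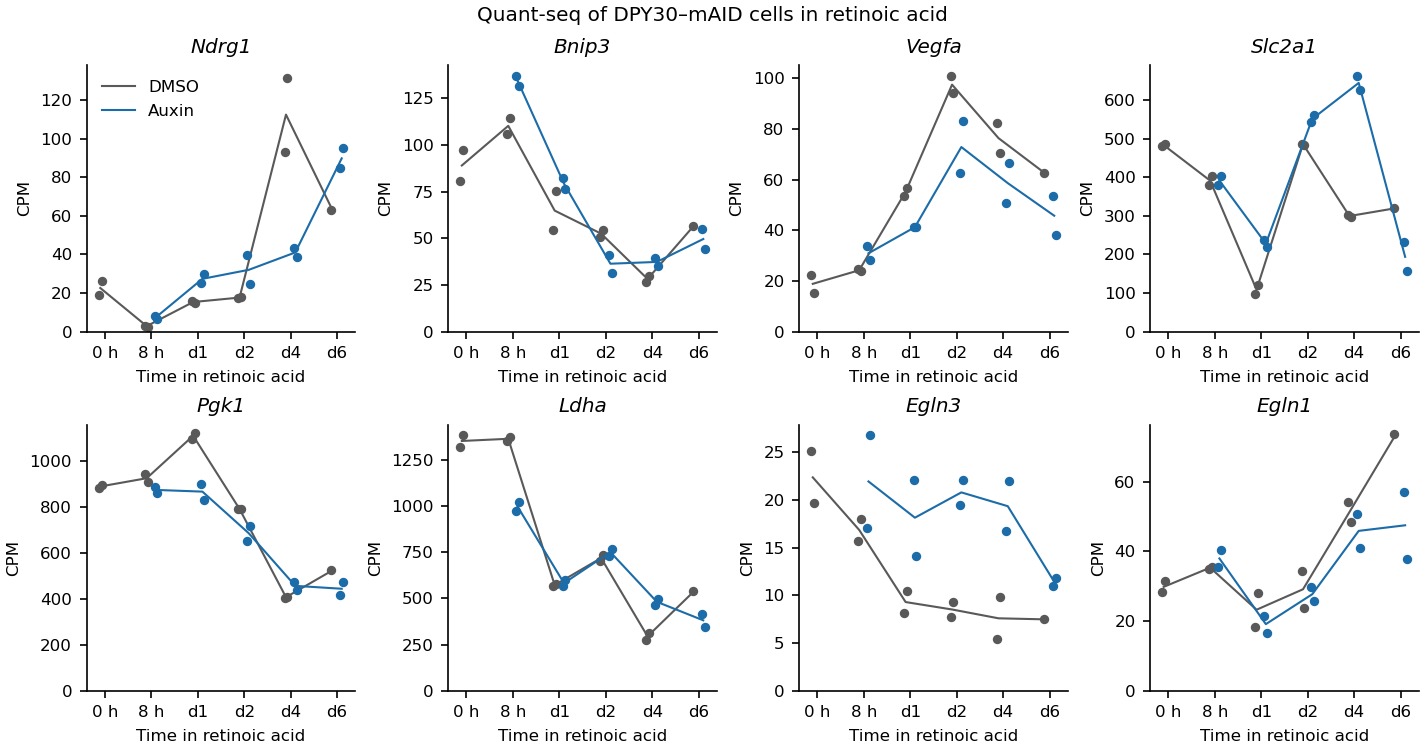
Quant-seq reads of 8 members, in CPM, over the RA course with DMSO or auxin (times evenly spaced). Points are libraries (1 for DMSO at day 6) and lines join the means. Ndrg1 at day 4 reads 93.3 and 132 with DMSO and 43.4 and 38.6 with auxin.

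Adding auxin to the RA course asks what the loss of DPY30 changes on top of differentiation. The calls were few and differed from day to day. At 8 h 0 of 10 members were called, against 0.166% of genes, and 2 at an unadjusted p with the fold threshold and 0 with DESeq2. Ndrg1 was then at 8.29 and 6.59 CPM with auxin against 3.13 and 2.52 with DMSO (1.30 ± 0.48, adjusted p = 0.27). Bnip3 was at 137 and 132 against 106 and 115 (0.19 ± 0.15, adjusted p = 0.7). Ldha was lower but under the fold threshold at 8 h, at −0.55 (−0.61, adjusted p = 0.00102, in uniquely mapped reads). It stood at 0.50 at day 4 and −0.69 at day 6. Slc2a1 was higher with auxin at day 1, at 237 and 219 CPM against 97.7 and 120 (1.08 ± 0.13, adjusted p = 4.1e-06), which was 0.95 and below the fold threshold without the first DMSO library. It was also higher at day 4, with 662 and 627 against 302 and 297 CPM (0.89 ± 0.11, adjusted p = 1.3e-06), and lower at day 6, with 232 and 156 against 320 in the 1 DMSO sample (−0.92 ± 0.14, adjusted p = 3.2e-05; −1.19 without the first auxin library).

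Ndrg1 was lower with auxin at day 4 (43.4 and 38.6 against 93.3 and 132 CPM; −1.66 ± 0.20, adjusted p = 8e-07), and at day 6 read 84.5 and 94.9 against 63.0 (0.31 ± 0.24, adjusted p = 0.39). At day 2 it was at 39.5 and 24.5 against 17.5 and 17.7 (0.76 ± 0.26, adjusted p = 0.053), and at 1.05 (adjusted p = 0.0219) without the second auxin library. Egln3 was higher at day 2 (19.5 and 22.1 against 7.73 and 9.32 CPM; 1.16 ± 0.33, adjusted p = 0.019) and day 4 (16.8 and 21.9 against 5.41 and 9.79; 1.14 ± 0.34, adjusted p = 0.019). With DESeq2 Egln3 was called on neither day (adjusted p = 0.0876 and 0.0952). Its day 2 call was lost without any of the 4 libraries (1.03 to 1.33, adjusted p from 0.0631 to 0.128), and the day 4 call without the second auxin library (0.92, adjusted p = 0.177) or the first DMSO library (0.77, adjusted p = 0.237). Pfkfb3 was higher at day 6 (22.7 and 34.0 against 9.25; 1.40 ± 0.35, adjusted p = 0.0054), but not without the second auxin library (1.05, adjusted p = 0.0681) or in a fit of these libraries alone (adjusted p = 0.268). Egln1 at day 6 was at −0.82 ± 0.24 (adjusted p = 0.015) and at −1.11 (adjusted p = 0.00144) without the first auxin library.

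In all, 1, 1, 2 and 1 members were called at days 1, 2, 4 and 6, against 2.44%, 4.75%, 7.3% and 10.2% of genes. The members' median log2 fold changes were 0.05, 0.24, −0.05, 0.34 and −0.41 from 8 h to day 6, and those of all genes lay between −0.03 and 0.01. The primitive endoderm markers, which also separate the arms, summed to 1412 and 1423 CPM with DMSO and 546.2 and 556.6 with auxin at day 4, and to 2830 and to 544.2 and 688.5 at day 6. The mES cell markers summed to 1880 and 1907 against 1461 and 1518 at day 4. The trophectoderm markers summed to 26.5 and 26.6 CPM with DMSO and 8.37 and 11.1 with auxin at day 1, and the primitive endoderm markers to 332 and 352 against 199 and 223 at day 2. In the same order the fibroblast markers summed to 7.46 and 7.73 against 16.2 and 23.3 at day 2. At day 4 they summed to 7.93 and 13.5 against 32.6 and 34.1. The neural markers summed to 62.8 and 72.7 against 96.5 and 103 at day 1, and the mES cell markers to 3760 and 3949 against 3151 and 3251 at 8 h. The part of these markers in the values of 8 h to day 6 was not tested.

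Other genes of the pathway were read as lists, which were chosen with earlier results of these data known. A gene can pass the count filter through the group where it is high, and counts per group are not given for list genes. Calls with a wide SE, as for Edn1, Zfp395, Rora and Car12 below, are read with that limit. The counts of calls are a description. Of 42 further hypoxia targets, 36 were tested in total reads of DPY30–mAID cells at 24 h, and 7 rose and 1 fell, which is 22.2% called against 13.2% of all genes, with a median log2 fold change of 0.33 where all genes had 0.01. The highest were the prolyl 4-hydroxylase subunit P4ha2 (2.58 ± 0.40), Narf (2.01 ± 0.33), the SOCS box gene Wsb1 (1.84 ± 0.17), the lysyl oxidase Loxl2 (1.47 ± 0.29) and the glycogen branching enzyme Gbe1 (1.29 ± 0.40), while the lipase inhibitor Angptl4 fell (−1.21 ± 0.32). At 8 h 2 of the 36 were higher, Zfp395 (2.59 ± 0.84) and Narf (1.24 ± 0.33), and 2 lower, Edn1 (−4.10 ± 1.35) and Angptl4 (−2.05 ± 0.34), against 4.16% of all genes called. Of 12 glycolytic enzymes in total reads, Aldoc rose at 24 h (1.62 ± 0.24) and the others were not called, and 0 were called at 8 h. None of the 11 genes of the HIF system tested, among them Hif1a, Arnt and Vhl, was called at 24 h, and 1 of them, Epas1 (HIF-2α), was called higher at 8 h (1.08 ± 0.34, adjusted p = 0.027). In T>C reads at 24 h Wsb1 was the 1 of 26 further targets called (2.02 ± 0.34), a share of 3.85% against 3.56% of all genes, and 0 of 8 glycolytic enzymes and 0 of 8 genes of the HIF system were called. At 8 h T>C reads of Pkm (−1.17 ± 0.33) and Pgam1 (−1.04 ± 0.27) were called lower, 25% of the glycolytic enzymes. So were Cited2 (−1.78 ± 0.35) and Mif (−1.34 ± 0.30), 7.69% of the further targets, against 14.6% of all genes, whose median was −0.71.

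In RBBP5–FKBP cells at 24 h the nuclear receptor Rora (3.67 ± 0.63) and the mTORC1 inhibitor Ddit4 (1.51 ± 0.19) rose, and Angptl4 (−2.06 ± 0.39) and the glycogen synthase Gys1 (−1.02 ± 0.28) fell, 4 of 32 further targets in total reads (12.5%, against 3.49% of all genes), while 0 of 12 glycolytic enzymes were called. The median was 0.06 over the list and 0.02 over all genes. In dKO cells at 24 h the further targets had 1 higher (Edn1, 1.44 ± 0.25) and 1 lower (Slc16a3, −1.05 ± 0.12) of 38, against 1.5% of all genes, and Eno1 fell (−1.20 ± 0.32) of 11 glycolytic enzymes. The 24 h change of 9 of 38 further targets was lower in dKO than in DPY30–mAID cells and higher in none (23.7%, against 7.38% of all genes), with P4ha2 at −2.56 ± 0.48, Narf at −1.98 ± 0.45, Gbe1 at −1.79 ± 0.54, Higd1a at −1.43 ± 0.16, Loxl2 at −1.42 ± 0.40 and Fam162a at −1.28 ± 0.19. The list's median difference was −0.20 and that of all genes 0.01. Among 12 glycolytic enzymes Aldoc (−2.04 ± 0.37) was lower and the hexokinase Hk2 (1.03 ± 0.27) higher, and among 11 genes of the HIF system the coactivator Ep300 (1.13 ± 0.16) was higher. The 24 h change in RBBP5–FKBP minus that in DPY30–mAID cells was negative for P4ha2 (−2.51 ± 0.59), Wsb1 (−2.26 ± 0.25) and Fam162a (−1.41 ± 0.27) and positive for Rora (5.11 ± 0.98), 4 of 36 further targets against 7.32% of all genes, and negative for Aldoc (−2.02 ± 0.38) among the glycolytic enzymes. These differences share the DPY30–mAID libraries.

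In T>C reads of dKO cells at 24 h, 0 of 6 glycolytic enzymes were higher and 4 lower (Gpi1, Pgam1, Pkm and Aldoa, from −1.83 to −1.39), with a median of −1.54 where all genes had −0.80. Of the further targets 10 of 27 were lower, led by the lactate exporter Slc16a3 (−3.55 ± 0.88), and their median was −0.98, where 27.7% of all genes were called, 7 of them higher and 1643 lower. In the HIF system Epas1 was called lower (−1.30 ± 0.38), 11.1% of the genes tested. At 48 h 7 were called, all lower (77.8%, against 64.5% of all genes), among them Epas1 (−1.50 ± 0.39) and Hif1a (−1.16 ± 0.35). In the RA course with DMSO, 7 of 11 glycolytic enzymes fell and none rose at day 4, from −2.45 (Aldoc) to −1.35 (Hk1), with a median of −1.47, where 30.7% of all genes were called. The HIF system had 30% called at day 4, with Arnt2 (2.51 ± 0.35) and Vhl (1.22 ± 0.18) higher and Epas1 (−1.38 ± 0.27) lower. Of the further targets 13 of 39 rose and 7 fell at day 4, among them Car12 (6.36 ± 1.45), the VLDL receptor Vldlr (3.66 ± 0.32) and P4ha2 (2.84 ± 0.25) higher and Slc16a3 (−3.75 ± 0.24), Pdk1 (−2.66 ± 0.18) and the transferrin receptor Tfrc (−2.14 ± 0.11) lower. With auxin against DMSO at day 4, 3 of 39 rose and 2 fell, and 0 glycolytic enzymes were called, against 7.3% of all genes. At day 6, where 10.2% of all genes were called, 6 rose and 5 fell, and 3 of 11 glycolytic enzymes fell (Eno1, Hk2 and Pfkl, from −1.27 to −1.02).

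Outside the members, genes whose T>C levels followed Ndrg1 closely over the 12 DPY30–mAID libraries, by Pearson's r of log2 T>C CPM across the 6317 genes tested, were Rin2 (0.836), Gskip (0.826), Bcl11a (0.807) and Lrig2 (0.798), and among the members r ran from −0.707 (Pfkfb3) and −0.619 (Egln1) to 0.813 (Bnip3). Ndrg1 and Bnip3 were both chosen for their rise in these libraries, so that their likeness follows from the choice. The 12 points share 4 times and the depth of their libraries. Mean T>C levels at 0 h and 2 h were low, at 0.651 and 0.399 CPM for Rin2, 0.567 and 1.23 for Gskip and 3.72 and 2.22 for Lrig2. As the highest of 6317 genes on few reads, these r values are a description. The T>C level of Bcl11a, a zinc finger repressor, was 2.29 CPM in the mean at 0 h and 4.75 at 8 h.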

How the data were processed

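Per the labels and file headers, SLAM-seq and Quant-seq libraries were 3′-end libraries (QuantSeq FWD kit) without molecular identifiers, and the authors deposited counts of all reads, T>C reads and multimapping reads for each GRCm38 (mm10) 3′ UTR interval. The file headers name SlamDunk 0.3.4 for all libraries. The submitters' processing notes name HISAT2 2.2.1 and featureCounts, and which made the Quant-seq counts could not be settled. Deposited T>C reads held at most 1.32 conversions on average, so they include reads below the minimum of 2 conversions in the study's methods, and that filter was not repeated.

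Intervals were summed per gene, with names from GENCODE vM21. edgeR 4.0.16 (R 4.3.3) fitted a quasi-likelihood model with TMM factors per SLAM-seq line and one over all Quant-seq groups, and per pair of lines for differences at 24 h, after dropping genes whose mean was under 10 reads in every group. T>C library sizes were total reads with their TMM factors. Adjusted p (Benjamini-Hochberg, all genes tested) below 0.05 and an absolute log2 fold change above 1 made a call. SE is the log2 fold change divided by the root of F. The study calls the SLAM-seq libraries biological replicates without saying whether each was a separate culture, so p-values measure the spread between libraries. The 2 identical DMSO day 6 libraries entered as 1. The fits were tested on simulated data.

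Members and lists were chosen with earlier results of these data known. Named were all members, the 5 genes most correlated with Ndrg1 (log2 of T>C CPM, pseudocount 0.5), and called genes of the lists, at most 6 per list and comparison by size. One gene that this rule names is not reported here. A few more were named beside counts after their values were seen. Fibroblast, trophectoderm and neural markers were read as well, and over the Quant-seq libraries their sums were 3.22 to 45.2, 8.37 to 1677 and 33.5 to 143 CPM. Alternatives were DESeq2 1.42.0, TMM factors from T>C reads or none, no count filter, any fold size, unadjusted p, only the groups compared, the replicate number as a block, leaving out each library and, added after seeing the data, uniquely mapped reads and the 24 h differences in total reads. Replicate numbers were not found to pair the libraries. Promoter windows came from RefSeq (GRCm38.p6), which had 9 of the 10 members. Other assays of the series were not used here.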

Additional observations from a re-analysis of the deposited data

Results flagged for a closer look

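The results below differ between cell lines by a test of the difference itself, the 24 h change in one line minus that in DPY30–mAID cells on the log2 scale (edgeR's quasi-likelihood test). In dKO cells the change of total reads was lower for Bnip3 (−3.77), Ndrg1 (−1.55), Pgk1 (−1.14) and Ldha (−1.06) and higher for Pfkfb3 (1.46). The Pgk1 value was not called in uniquely mapped reads (−2.17, adjusted p = 0.191), and that of Ldha was −0.99 without the second dKO 0 h library. Of the Bnip3 reads in dKO libraries 61.1% mapped to more than 1 place. Whether they came from the same sequence as in DPY30–mAID cells was not tested. In T>C reads it was lower for Ldha (−1.78), Pgk1 (−1.37) and Slc2a1 (−1.29), where the median over all genes was −0.68. Scaling factors from T>C reads ended the Slc2a1 (−0.69) and Pgk1 (−0.76) calls, and leaving out single libraries ended all 3 calls, for Ldha at adjusted p from 0.0753 to 0.125. In RBBP5–FKBP cells the change of total reads was lower for Bnip3 (−1.81) and higher for Slc2a1 (1.10). All share the DPY30–mAID libraries, and Ndrg1 and Bnip3 were chosen for their rise in that line. The knockout or tag cannot be told apart from the set of libraries.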

How the results depend on the processing

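Counts of called members are given here as main count and alternative. With scaling factors from T>C reads, the T>C calls went from 2 to 4 in DPY30–mAID at 24 h, 1 to 0 in RBBP5–FKBP at 24 h, 4 to 1 and 5 to 0 in dKO at 24 h and 48 h, and 3 to 1 for the dKO difference, and the T>C log2 fold change of Pgk1 in dKO cells at 48 h turned from −1.13 to 0.0686. That alternative by its construction centres all genes. In DPY30–mAID T>C reads at 24 h, no count filter left 1, while only the groups compared and an unadjusted p each gave 4. Without the fold threshold the counts were 2 for 1 in RBBP5–FKBP T>C at 24 h, 2 for 0 in dKO T>C at 8 h, 5 for 3 in DPY30–mAID total at 24 h, 3 for 1 in RBBP5–FKBP total at 8 h, 7 for 1 in dKO total at 24 h and at 48 h, 5 for 2 and 8 for 5 in DMSO at days 2 and 6, and 1 for 0, 2 for 1, 4 for 1, 5 for 2 and 5 for 1 with auxin from 8 h to day 6. RBBP5–FKBP total at 8 h (1) gave 0 with only the groups compared and 2 at an unadjusted p. dKO total at 24 h (1) gave 0 without TMM factors. At an unadjusted p DMSO at 8 h (1) gave 2, auxin at 8 h (0) gave 2, auxin at day 2 (1) gave 2 and the RBBP5–FKBP T>C difference (0) gave 2, which was 1 with DESeq2 and with only the groups compared. Auxin at day 1 (1) gave 2 with only the groups compared. DESeq2 gave 0, 1 and 0 for auxin at days 2, 4 and 6 (1, 2 and 1), and only the groups compared gave 0 at day 6. The cause was not tested for these other changes.

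Leaving out 1 library at a time gave 0 to 1 calls in DPY30–mAID T>C at 24 h, 1 to 2 in RBBP5–FKBP T>C at 24 h, 3 to 5 and 4 to 6 in dKO T>C at 24 h and 48 h, 3 to 4 in DPY30–mAID total at 24 h, 1 to 3 and 2 to 3 in RBBP5–FKBP total at 8 h and 24 h, 0 to 1 in dKO total at 24 h, 2 to 3 in DMSO at day 2, and 0 to 1, 0 to 1, 1 to 2 and 0 to 3 with auxin at days 1, 2, 4 and 6. The differences gave 0 to 3 (dKO T>C), 4 to 5 (dKO total) and 1 to 3 (RBBP5–FKBP total). With 1 library left in an arm, that library is assumed to vary like the other groups.

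With the replicate number as a block, no call of a member changed, and all 229 log2 fold changes kept their direction and side of the threshold. Libraries of the same number did not deviate together (mean correlation from −0.0122 to 0.0534, lowest −0.263, highest 0.436), so the numbers were not taken as pairs. Low counts limit Ankrd37 in the SLAM-seq lines, Ndrg1 and Vegfa T>C reads in RBBP5–FKBP and Bnip3 T>C reads in dKO cells.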
